A study of Mus musculus with 76 samples.

Results

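Right ventricular (RV) RNA of gamma-irradiated female C57Bl/6J mice was compared with that of sham-treated females on the same diet. The comparison took the F libraries on the normal diet (ND) that the labels give the field Gamma and the dose 100 cGy, F17 to F19 and F36 to F40, and the ND libraries with the field Sham and 0 cGy, F6 to F9 and F26 to F30. This gave 8 gamma and 9 sham libraries, 17 of the 76 in the series. F16 has the field Gamma but the dose 0 cGy, so its group is not clear and it entered no comparison. The rest of the series holds Western diet (WD), mixed field and male libraries, and the study's question about diet was not addressed here. The sham females were collected at 530 d (F6 to F9) or 640 d (F26 to F30). The ages of the irradiated females and the time between exposure and collection are not given in the sources used here. Titles fall into the blocks F1-F20, with 3 gamma and 4 sham libraries, and F21-F40, with 5 of each, and the sham ages differ between these blocks. Age and block therefore cannot be told apart.

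Gamma rays break DNA strands and oxidise bases. The kinase ATM and the transcription factor p53 answer this damage within hours by inducing genes that stop the cell cycle (Cdkn1a), limit p53 itself (Mdm2) and start apoptosis (Bax, Fas), and DNA repair enzymes restore the strands. In the heart, late effects of radiation are known mainly as loss of capillaries, inflammation and fibrosis, since cardiomyocytes rarely divide.

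No single gene separated the irradiated from the sham RV at the adjusted threshold in the 17 libraries. The gene with the clearest separation was Cep128, a centriole protein gene, which was lower in every gamma library than in every sham library. Within F1-F20 alone 43 genes passed, among them glucocorticoid-responsive, clock and interferon-related genes, but none of these calls remained when near-identical libraries were counted once, and none passed in F21-F40.

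Several libraries stood apart before any comparison. Total counts on genes were between 12690702 and 20826684. Counting error was used as the yardstick for how far any 2 libraries lay apart, as a chi-square averaged over genes. It was 1.70 to 3.03 in 4 of 136 pairs and never under 9.58 elsewhere (median 53.4). The 4 close pairs were F17 with F18 and F36 with F37 (gamma), and F6 with F7 and F29 with F30 (sham). The 17 libraries thus held 6 distinct gamma and 7 distinct sham profiles, and the main results are also given with each pair summed and counted once. The labels list all of them as separate samples with their own RIN, and p-values measure only the spread between these libraries. RIN was 8.4 and 8.6 in F17 and F18, 6.8 and 7.4 in F36 and F37, and 7.6 and 7.2 in F6 and F7. It was 4.1 in F29 and 5.6 in F30, although their counts were close. How well the RIN of a label describes the RNA of its library was not tested, and this limits all fits with RIN.

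F39, a gamma library, went against its sex label at 1 transcript. Xist, the RNA that silences 1 X chromosome in female cells, was 1.15 CPM in F39 (counts scaled to library size with TMM factors) and 47.4 to 178 CPM in the other 16 libraries. The Y-linked gene Ddx3y was 0.0703 CPM in F7 and 0.147 CPM in F8 and 0 in the other 15 libraries, F39 included. Leaving F39 out gave 1 gene past the threshold, described below.

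RNA integrity differed between the groups. RIN was 7.14 ± 0.977 (SD, n = 8) in gamma and 6.0 ± 1.18 (SD, n = 9) in sham libraries, a difference of 1.14 (two-sided exact permutation test, p = 0.0499). Within F21-F40 the difference was 1.52 (exact p = 0.0159, n = 5 and 5), and within F1-F20 it was 0.833 (exact p = 0.257, n = 3 and 4). Counting each near-identical pair once left 0.952 (exact p = 0.112, n = 6 and 7). In the fit with field and RIN, RIN was associated with 5982 of the 11351 genes tested (52.7%, edgeR adjusted p under 0.05), 3053 with higher (26.9%) and 2929 with lower (25.8%) levels at higher RIN. The first principal component held 71.0% of the variance of the 500 most variable genes and ran from F17 and F18, the libraries with the highest RIN (8.4 and 8.6), to F39 and F28 (5.7 and 4.9). RIN was therefore kept as a covariate, and the fit without it is given where it differs.

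**Figure D1:**
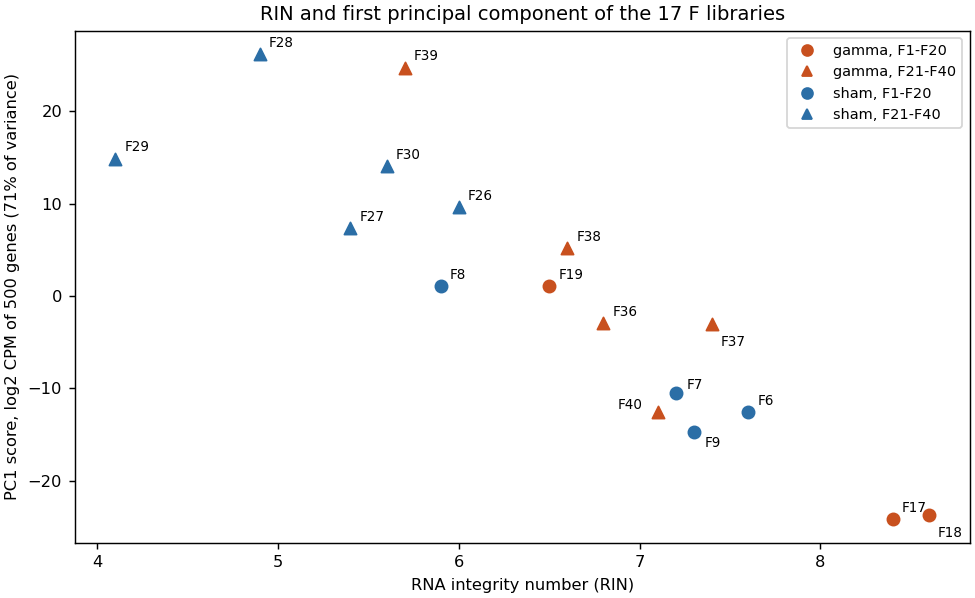
RIN of each library (x axis) against its score on the first principal component of log2 CPM (y axis, 71.0% of the variance of 500 genes). Orange is gamma and blue is sham, circles are F1-F20 and triangles F21-F40. Scores run from 26.2 in F28 (RIN 4.9) to -24.2 in F17 (RIN 8.4), and the 5 sham libraries of F21-F40 lie at RIN 4.1 to 6.0.

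With RIN as a covariate, 0 of 11351 genes (0%) differed between gamma and sham at an edgeR adjusted p under 0.05, and the lowest adjusted p was 0.196. At an unadjusted p under 0.05, 1551 genes (13.7%) were called, 712 with higher (6.27%) and 839 with lower (7.39%) fitted levels after gamma. DESeq2 with the same model called 24 genes, 9 higher and 15 lower, and 18 of these are among the 20 genes named next. Counting near-identical libraries once again gave 0 genes, with 1246 at an unadjusted p under 0.05. So counted and without RIN, 0 genes passed and 246 had an unadjusted p under 0.05. With title block added to RIN in the 17 libraries, 0 genes passed and 497 had an unadjusted p under 0.05. The size of the unadjusted count thus depended on the model, and the fit with RIN that supplies most backgrounds below holds no title block. The 20 genes described here are the 10 of each direction with the smallest unadjusted p, and they are a description of the strongest fitted differences, not a list of changed genes.

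Cep128 (chr12:90965149-91351248) encodes a protein of the centriole. It was 5.43 to 10.3 CPM, median 8.63, in the gamma libraries, and 10.3 to 15.2 CPM, median 13.6, in the sham libraries. The closest values were 10.26 CPM in F40 and 10.32 CPM in F26, so the groups did not overlap but nearly met. Its log2 fold change, gamma minus sham, was -0.59 (SE 0.13, unadjusted p = 0.000234, adjusted p = 0.273). It was -0.49 in F1-F20 and -0.55 in F21-F40, and -0.71 without RIN. It was the 1 gene of those tested (0.00881%) with every gamma library below every sham library, and 0 genes had every gamma library above.

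Csdc2 (chr15:81817755-81835143), an RNA-binding cold shock domain protein gene, was higher in 7 of 8 gamma libraries than in any sham library. Its levels were 49.4 to 108 CPM, median 75.3, in gamma and 37.7 to 52.96 CPM, median 46.7, in sham libraries. F17 and F18 held the highest values, 107 and 108 CPM, and F39 the lowest of the gamma libraries. The log2 fold change was 0.66 (SE 0.17, adjusted p = 0.284), and 0.80 without RIN (unadjusted p = 3.07e-05).

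St3gal5 (chr6:72074329-72131556) makes the ganglioside GM3. Its level was 58.6 to 79.7 CPM, median 72.1, in gamma and 44.4 to 64.6 CPM, median 53.1, in sham libraries, and 6 gamma libraries were above every sham library. The fitted log2 fold change was 0.47 (SE 0.11, adjusted p = 0.273). The blocks differed in level among the sham libraries, with 44.4 to 46.1 CPM in F1-F20 and 53.1 to 64.6 CPM in F21-F40, and the gamma libraries were above the sham libraries of their own block except F38, at 62.7 CPM.

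Nxpe4 (chr9:48073278-48313482), a member of a neurexophilin-like family, was 9.003 to 13.3 CPM, median 9.89, in gamma and 10.9 to 17.7 CPM, median 13.5, in sham libraries. All gamma libraries but F39 were below every sham library. The log2 fold change was -0.53 (SE 0.11, adjusted p = 0.273), and it was the 1 gene that passed when F39 was left out (log2 fold change -0.67, edgeR adjusted p = 0.0214), an alternative chosen after seeing the data. Without RIN it was -0.46 (unadjusted p = 0.00044). It was -0.71 in F1-F20 and -0.15 (unadjusted p = 0.449) in F21-F40.

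Ankrd12, Rasl10a, Cdh22 and Etfbkmt also kept their direction and a small p without RIN. Ankrd12, an ankyrin repeat cofactor of transcriptional repression, was 7.51 to 11.8 CPM in gamma and 10.5 to 16.4 CPM in sham libraries, with a log2 fold change of -0.55 (SE 0.11). Rasl10a, a small GTPase gene, was 6.52 to 10.7 CPM in gamma and 3.24 to 9.86 CPM in sham libraries, with a log2 fold change of 0.95 (SE 0.22). In the sham libraries of F1-F20 it was at most 4.64 CPM, and in those of F21-F40 at least 5.27 CPM, and the log2 fold changes were 1.41 and 0.42 in these blocks. Cdh22, a cadherin gene, was 9.88 to 26.9 CPM in gamma and 5.55 to 13.01 CPM in sham libraries (log2 fold change 0.81, SE 0.21), and Etfbkmt, a methyltransferase of the electron transfer flavoprotein, was 20.1 to 26.7 CPM against 11.8 to 23.8 CPM (0.49, SE 0.12). The adjusted p-values of these 4 genes were between 0.23 and 0.284.

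For another part of the 20 genes the levels themselves overlapped, and the fitted difference appeared once RIN was in the model. Tet3, which oxidises 5-methylcytosine, was 9.81 to 22.5 CPM in gamma and 9.26 to 28.5 CPM in sham libraries. Its log2 fold change was -0.60 (SE 0.11) with RIN and -0.16 (unadjusted p = 0.466) without it, and it rose by 0.41 on the log2 scale per RIN unit. Rab10os, a long noncoding RNA named for its position opposite the gene of a vesicle transport GTPase, gave -0.62 (SE 0.12) with RIN and -0.20 without it. No source used here states whether counting was stranded, so reads of an antisense pair cannot be told apart. Ninj1, which ruptures the membrane of dying cells, was 82.0 to 179 CPM in gamma and 59.0 to 165 CPM in sham libraries, and its log2 fold change was 0.56 (SE 0.14) with RIN and 0.05 without. Gsta4, a glutathione transferase that removes lipid peroxidation products, gave 0.44 (SE 0.11) with RIN and 0.07 without. Rpl17-ps3, a processed pseudogene that shares reads with a ribosomal protein gene and is uncertain for that reason, gave 0.79 (SE 0.20) with RIN and -0.22 without.

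The remaining 7 had differences between these extremes. Jarid2, a cofactor of the Polycomb complex that methylates histone H3, had a log2 fold change of -0.53 with RIN and -0.29 without. Kit, the stem cell factor receptor, had -1.003 and -0.67, Uvssa, a factor of transcription-coupled repair, -0.70 and -0.26, Akr1e1, an aldo-keto reductase, 0.36 and 0.12, and Atg4a, an autophagy protease, 0.35 and 0.13. The long noncoding RNAs Gm57283 (-0.78 and -0.39) and C920021L13Rik (-0.98 and -0.72) also had lower fitted values. C920021L13Rik had -1.25 in F1-F20 and -0.06 in F21-F40, and it spans the clock gene Ciart on the opposite strand.

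**Figure D2:**
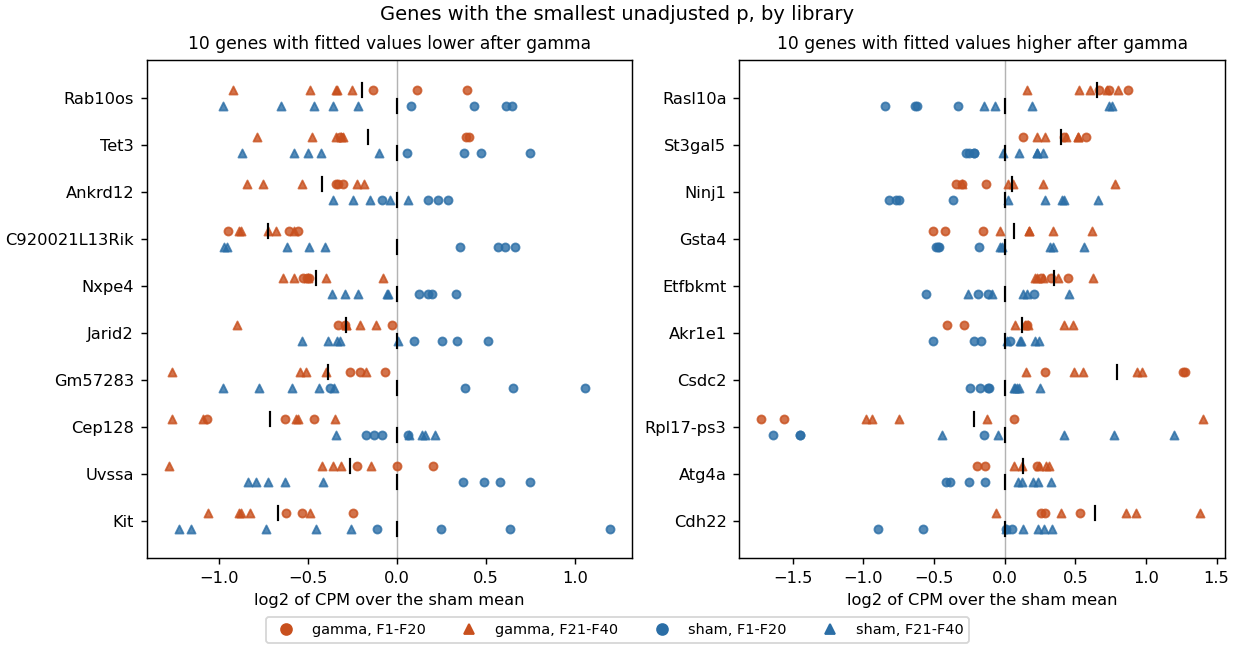
Level of the 20 genes in each library as log2 of CPM over the sham mean (x axis), one gene per row, with gamma in orange above sham in blue, circles for F1-F20, triangles for F21-F40 and a black bar at the log2 of each group's mean. Cep128 shows 8 gamma points left of all 9 sham points, Csdc2 has 7 of 8 to the right of them, and in Tet3 and Ninj1 the groups overlap.

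Genes that p53 induces were examined as a group because of the exposure. Of 35 listed p53 targets 29 were tested, and 2 had an unadjusted p under 0.05 with higher levels (background 6.27%) and 0 with lower. Their median log2 fold change was 0.02, beside 0.01 for all genes. Fas, a death receptor, was 16.3 to 27.6 CPM in gamma and 11.3 to 25.8 CPM in sham libraries, with a log2 fold change of 0.47 (SE 0.16, adjusted p = 0.296). Rps27l, a p53-induced ribosomal protein paralogue, gave 0.39 (SE 0.16) with RIN and -0.33 without. Mdm2 was 42.2 to 56.0 CPM against 40.2 to 53.6 CPM, a difference of -0.09 (SE 0.07). Ccng1, a cyclin that p53 induces, was 494 to 671 CPM against 477 to 719 CPM, and Bax was 11.1 to 33.2 CPM against 13.9 to 26.6 CPM. Phlda3, an inhibitor of Akt, Trp53inp1, which promotes apoptosis, and Eda2r, a receptor of the TNF family, had log2 fold changes of -0.10, 0.02 and -0.32, none with an unadjusted p under 0.05. Gdf15, a stress cytokine, stayed under the count filter, with 1.30 to 4.02 CPM in gamma and 0.59 to 4.78 CPM in sham libraries.

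Cdkn1a, which encodes the cell cycle inhibitor p21, was the exception in level but not in the test. In F17 and F18 it was 153 and 146 CPM, in F19 it was 43.1 CPM, and in the other gamma libraries it was between 15.4 and 34.8 CPM. The sham libraries were between 15.6 and 33.3 CPM. The highest values, those of F17 and F18, thus came from 1 near-identical pair. Of the gamma libraries 4 were above every sham library, F19 among them, and 1 was below every sham library. Within F1-F20 the sham libraries were at most 23.7 CPM, below all gamma libraries of that block. The log2 fold change was 0.70 (SE 0.46, adjusted p = 0.485) with RIN, 1.38 without RIN (unadjusted p = 0.00252) and 0.47 with pairs counted once (unadjusted p = 0.325). It was 2.00 (SE 0.37, adjusted p = 0.0547) in F1-F20 and 0.05 (SE 0.31) in F21-F40, and the difference between the blocks, F21-F40 minus F1-F20, in 1 fit of all 17 libraries with a shared RIN slope was -2.52 (unadjusted p = 1.19e-05, adjusted p = 0.0754).
The Cdkn1a promoter is shown since p21 is the best known target of p53. It is the RefSeq sequence (GRCm38.p6, unlike the GRCm39 positions of genes above) from 250 bases before to 50 after the annotated start, and capitals mark the 2 matches to the decamer that p53 binds as a repeat.
Cdkn1a promoter, chr17:29090729-29091028 (+ strand): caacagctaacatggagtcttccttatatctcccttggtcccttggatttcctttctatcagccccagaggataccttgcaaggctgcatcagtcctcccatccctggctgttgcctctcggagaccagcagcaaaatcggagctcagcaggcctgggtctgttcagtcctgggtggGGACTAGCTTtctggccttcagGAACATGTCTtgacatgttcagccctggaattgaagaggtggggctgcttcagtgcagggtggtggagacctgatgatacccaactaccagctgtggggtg
This decamer was found on either strand in the promoters of 9.55% of 27025 genes and in 10 of the 69 genes named here that have a promoter entry (14.5%). A match is a description of the letters and not of binding.

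**Figure D3:**
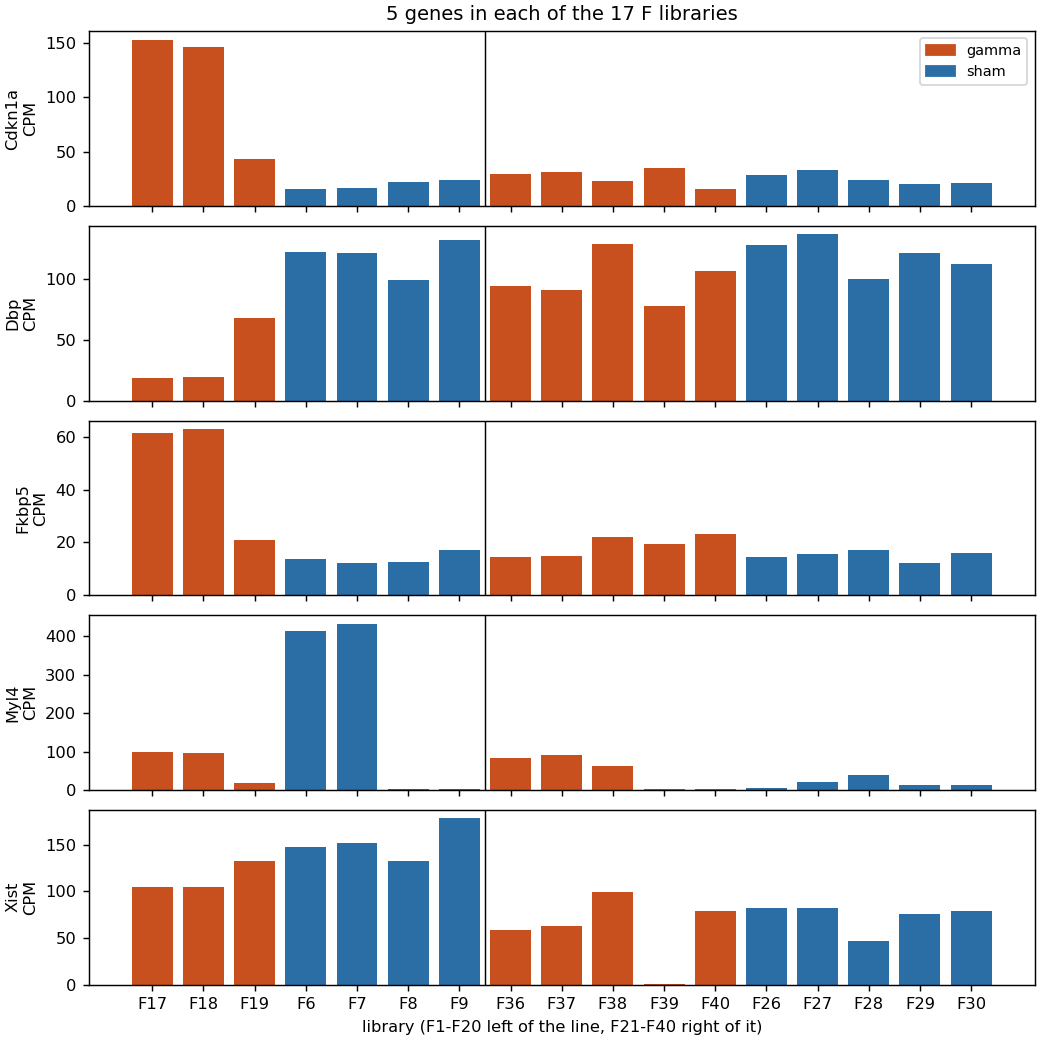
CPM (y axis, from 0) of Cdkn1a, Dbp, Fkbp5, Myl4 and Xist in each of the 17 libraries (x axis), gamma in orange and sham in blue, F1-F20 left of the line. F17 and F18 hold the 153 and 146 CPM of Cdkn1a and the lowest Dbp, F6 and F7 the highest Myl4, and F39 has 1.15 CPM of Xist.

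DNA repair genes showed no shift as a group. Of 39 tested, 1 had a higher and 3 a lower level at an unadjusted p under 0.05 (backgrounds 6.27% and 7.39%), and the median log2 fold change was -0.05. The smallest p was that of Lig1, the ligase that joins Okazaki fragments, with 2.67 to 5.35 CPM in gamma and 3.22 to 6.95 CPM in sham libraries and a log2 fold change of -0.45 (SE 0.19, adjusted p = 0.324). Cell cycle genes leaned to lower values. Of 20 tested, 0 were higher and 7 lower at an unadjusted p under 0.05 (backgrounds 6.27% and 7.39%), with a median of -0.24, and of -0.19 without RIN. With pairs counted once 1 was higher and 5 lower (backgrounds 5.79% and 5.19%). The D cyclins that drive entry into S phase were among them, Ccnd2 with -0.39 (SE 0.12) and Ccnd1 with -0.58 (SE 0.19). Without RIN these became -0.14 and -0.16.

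Within the block F1-F20, where F17, F18 and F19 faced F6 to F9, 43 of the same 11351 genes (0.379%) passed an edgeR adjusted p under 0.05, 26 higher (0.229%) and 17 lower (0.15%). Without a covariate 23 genes passed, and DESeq2 with RIN called 246. The block rests on 2 distinct gamma and 3 distinct sham profiles, and with near-identical libraries counted once 0 genes passed, with 637 at an unadjusted p under 0.05. All 43 kept their direction in that fit. Without F6, F7 or F17 also 0 passed, without F18 3, without F9 76, without F8 352 and without F19 779. The genes named from this block were chosen after their values were seen, unless the rule in the methods names them.

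Several genes that glucocorticoids induce were among them. Of 14 tested, 3 rose in F1-F20 (background 0.229%) and 0 fell, and the median log2 fold change of the 14 was 0.86, beside 0.01 for all genes. In F21-F40 the median was 0.20. Over all 17 libraries the 14 had fitted values above 0, with a median of 0.36. At an unadjusted p under 0.05, 2 were higher and 0 lower (backgrounds 6.27% and 7.39%). Without RIN 9 were higher and 0 lower (6.44% and 3.25%), and with pairs counted once 2 and 0 (5.79% and 5.19%). Errfi1, a feedback inhibitor of the EGF receptor, was 39.2, 38.8 and 29.4 CPM in F17, F18 and F19 and 13.7 to 19.8 CPM in F6 to F9, and rose by 1.22 on the log2 scale (SE 0.18, edgeR adjusted p = 0.0381). Tsc22d3, which encodes the anti-inflammatory protein GILZ, was 129 to 137 CPM against 67.7 to 97.4 CPM and rose by 0.93 (SE 0.12, adjusted p = 0.0258). Ddit4, an inhibitor of mTORC1 that the p53 list also holds, was 52.4 to 102 CPM against 25.7 to 32.9 CPM and rose by 1.28 (SE 0.21, adjusted p = 0.0398). Fkbp5, a chaperone of the glucocorticoid receptor, was 61.3 and 63.0 CPM in F17 and F18, 21.1 CPM in F19 and 12.1 to 17.1 CPM in the sham libraries, but did not pass (adjusted p = 0.0576). In F21-F40 the values of Errfi1, Tsc22d3, Ddit4 and Fkbp5 were 0.49, -0.16, -0.21 and 0.28, none with an unadjusted p under 0.05.

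The 3 smallest p-values of the block were those of genes that stress, fasting and cytokines induce. Cebpd, a transcription factor of the acute phase, was 42.7, 39 and 53.3 CPM in the gamma libraries and 12.7 to 28.1 CPM in the sham libraries and rose by 1.72 (SE 0.18, edgeR adjusted p = 0.0126). Depp1, a FOXO target linked to autophagy, was 109 to 122 CPM against 32.6 to 51.0 CPM and rose by 1.55 (SE 0.15, adjusted p = 0.0126). Serpina3n, a protease inhibitor of the acute phase, was 35.9 to 39.7 CPM against 10.3 to 17.8 CPM and rose by 1.70 (SE 0.18, adjusted p = 0.0126). Ccn2, a matrix protein gene induced by TGF-beta and YAP, was 63.8, 68.1 and 67.0 CPM against 20.9 to 33.5 CPM and rose by 1.16 (SE 0.13, adjusted p = 0.0183). The macrophage chemokines Ccl6 and Ccl9 rose by 1.39 (SE 0.24) and 1.47 (SE 0.25), each with an adjusted p of 0.0453, and the summed macrophage markers were 478 to 964 CPM in these gamma libraries and 512 to 883 CPM in the sham libraries, whose part in the result was not tested. Bcl2l1, which encodes the survival protein Bcl-xL, rose by 0.93 (SE 0.14, adjusted p = 0.0381). In F21-F40 these 7 genes had log2 fold changes from 0.07 for Bcl2l1 to 0.78 for Serpina3n, none with an unadjusted p under 0.05.

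Clock output genes were lower in the same libraries. Of 12 tested, 2 fell (background 0.15%) and 0 rose in F1-F20, with a median of -0.52. In F21-F40 the median was -0.17. Over all 17 libraries 0 were higher and 5 lower at an unadjusted p under 0.05 (backgrounds 6.27% and 7.39%), with a median of -0.29. Without RIN 1 was higher and 5 lower (6.44% and 3.25%), and with pairs counted once 0 and 3 (5.79% and 5.19%). Per3, a repressor arm gene of the clock, was 17.3, 16.5 and 24.3 CPM in F17, F18 and F19 and 38.5 to 63.2 CPM in F6 to F9, and fell by 1.31 on the log2 scale (SE 0.20, edgeR adjusted p = 0.0381). Hlf, a PAR-domain transcription factor that the clock drives, was 12.8 to 17.2 CPM against 28.5 to 32.7 CPM and fell by 0.91 (SE 0.13, adjusted p = 0.0381). Dbp, of the same family, was 18.7, 19.4 and 67.7 CPM against 99.0 to 132 CPM, with a log2 fold change of -1.58 (SE 0.31, adjusted p = 0.062). Ciart, a repressor whose level follows the clock, had -0.94 (SE 0.24, adjusted p = 0.145). In F21-F40 the values were -0.11, -0.39, -0.42 and -0.54 in the same order, none with an unadjusted p under 0.05. The time of day of collection is not given in the sources used here, and its part in these values was not tested.
The promoters of Ciart and Per3 are shown since the clock acts on its output through 2 short elements, the E-box CACGTG (Ciart, 3 matches) and the D-box TTANGTAA (Per3, 2 matches), in capitals (RefSeq, GRCm38.p6).
Ciart promoter, chr3:95882179-95882478 (- strand): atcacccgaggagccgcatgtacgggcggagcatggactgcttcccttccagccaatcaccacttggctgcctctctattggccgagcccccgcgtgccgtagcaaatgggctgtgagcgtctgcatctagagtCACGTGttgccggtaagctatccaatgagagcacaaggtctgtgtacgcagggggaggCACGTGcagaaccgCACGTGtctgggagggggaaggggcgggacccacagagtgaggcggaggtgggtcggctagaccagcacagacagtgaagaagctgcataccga
Per3 promoter, chr4:151044616-151044915 (- strand): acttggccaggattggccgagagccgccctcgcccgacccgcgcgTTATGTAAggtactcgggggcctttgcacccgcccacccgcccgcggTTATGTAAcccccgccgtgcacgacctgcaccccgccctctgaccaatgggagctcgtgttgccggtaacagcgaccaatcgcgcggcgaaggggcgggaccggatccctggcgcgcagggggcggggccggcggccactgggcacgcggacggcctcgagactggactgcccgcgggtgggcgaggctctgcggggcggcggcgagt
Both strands were searched, and by their letters the elements cannot overlap. An E-box was in 8.09% of all promoters, in 4 of the 10 clock output genes with an entry (40%) and in 18.8% of the named genes. A D-box was in 2.72% of all promoters and in 1 of these 10.

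Interferon-induced and class I MHC genes were also called in F1-F20. Of 47 on the list that were tested, 4 fell in F1-F20 (background 0.15%) and 0 rose, and the median was -0.33 there and 0.20 in F21-F40. Gbp4, a GTPase of the defence against intracellular microbes, was 7.10 to 13.5 CPM in the gamma libraries of F1-F20 and 20.97 to 23.3 CPM in its sham libraries, and fell by 1.07 on the log2 scale (SE 0.16, edgeR adjusted p = 0.0381). Its difference between the blocks was 1.25 (unadjusted p = 0.000664, adjusted p = 0.21). H2-Q7, a class I MHC gene with near-identical neighbours and therefore uncertain, fell by 1.13 (SE 0.14, adjusted p = 0.0242). Outside the list, the related GTPase Gbp5 fell by 1.06 (SE 0.17, adjusted p = 0.0398). Also outside it, Ifi205 and Ifi207, of a family with closely similar members and so uncertain, rose by 1.54 (SE 0.25) and 0.95 (SE 0.14), with adjusted p-values of 0.0398 and 0.0381. In F21-F40 H2-Q7 ranged from 6.86 CPM in F40 to 26.9 CPM in F38 among the gamma libraries and from 12.5 to 16.8 CPM in the sham libraries. Over all 17 libraries 2 genes of this list were higher, with Ifi211 at 0.64 (SE 0.21), and 4 lower, with Tap2, the peptide transporter of antigen presentation, at -0.35 (SE 0.12), all at an unadjusted p under 0.05 only and near the backgrounds of 6.27% and 7.39%.

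The block F21-F40 gave 0 genes at an adjusted p under 0.05, and 144 (1.27%) at an unadjusted p under 0.05 by edgeR. The latter count was 906 with near-identical libraries counted once, 699 without F29 and 448 without F39, and the adjusted count stayed 0 in each. DESeq2 also called 0. In this block RIN and field overlapped little, with 5.7 to 7.4 in gamma and 4.1 to 6.0 in sham libraries, and without RIN 974 genes had an unadjusted p under 0.05. Of the 43 genes of F1-F20, 30 had the same sign in F21-F40, 1 of them, the small GTPase Rhou, with an unadjusted p under 0.05 there. A test of the difference between blocks called 0 of 11351 genes by edgeR (1030 at an unadjusted p under 0.05, 9.07%, and 473 with pairs counted once) and 61 by DESeq2. Among the genes named here, Socs3, the feedback inhibitor of cytokine signalling, had an unadjusted p under 0.05 in the 17 libraries and in F21-F40, as did Fas, Etfbkmt, Rpl17-ps3 and Ccnd1. Socs3 was 4.58 to 27.6 CPM in gamma, with F39 the highest, and 3.81 to 8.17 CPM in sham libraries, with a log2 fold change of 1.02 (SE 0.32, adjusted p = 0.296), which was 0.36 without F39.

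**Figure D4:**
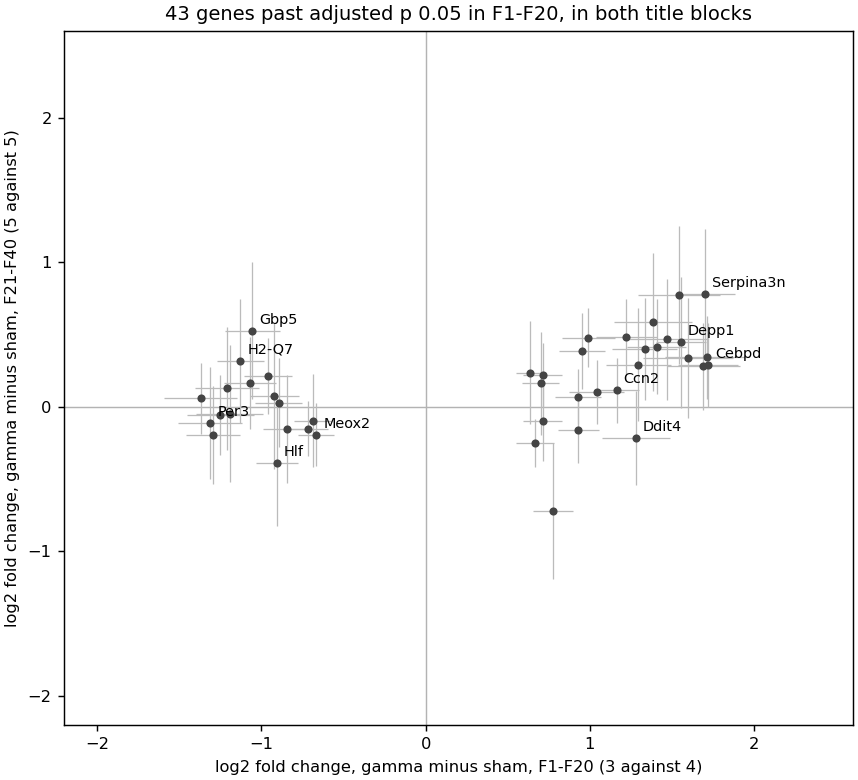
Log2 fold change, gamma minus sham, of the 43 genes called in F1-F20, in F1-F20 (x axis, 3 against 4 libraries) and in F21-F40 (y axis, 5 against 5), with bars for the standard error and RIN in both fits. The genes were chosen on the x axis, where they lie at 0.64 or farther from 0, and on the y axis they lie between -0.72 and 0.78, with 30 of 43 on the same side of 0.

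The list with the most members at an unadjusted p under 0.05 in the fit with RIN also had the steepest median slope on RIN among the lists, -0.67 on the log2 scale per RIN unit. Of 80 cytosolic ribosomal protein genes, 53 had a higher and 0 a lower fitted level after gamma at an unadjusted p under 0.05 (background 6.27%), and their median log2 fold change was 0.37. Without RIN the median was -0.30, 0 were higher and 1 lower (backgrounds 6.44% and 3.25%), and 78 of the 80 had an adjusted p under 0.05 for RIN with lower levels at higher RIN (background 25.8%). Rpl34, a protein of the large subunit, shows both. It was 88.6 CPM in F18 and 693 CPM in F39, the lowest and the highest of the gamma libraries, and 113 to 611 CPM in the sham libraries. The groups overlapped over most of this range, and the log2 fold change was 0.55 (SE 0.18) with RIN and -0.27 without.

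Nuclear genes of oxidative phosphorylation turned in the same way in their median, from 0.21 with RIN to -0.26 without. With RIN 7 of 78 were higher and 0 lower at an unadjusted p under 0.05, a share near the background of 6.27%, and with pairs counted once 22 were higher (background 5.79%). Cox7a2, a subunit of cytochrome c oxidase, gave 0.42 and -0.31. The 13 mitochondrially encoded genes had 0 of either direction and a median of -0.00247. The direction of the ribosomal and the nuclear respiratory list thus turned with the covariate. Their medians kept the sign of the fit with RIN in F1-F20, in F21-F40 and with pairs counted once (0.23, 0.47 and 0.46 for ribosomal proteins).

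Antioxidant genes had 11 of 31 higher and 1 lower with RIN (backgrounds 6.27% and 7.39%) and a median of 0.22, against a median of -0.00289 and 6 higher and 1 lower without (6.44% and 3.25%). Besides Gsta4, Srxn1, which repairs peroxiredoxins, was 30.3 to 43.4 CPM in gamma and 20.9 to 36.3 CPM in sham libraries, and its log2 fold change of 0.45 (SE 0.13) was 0.37 without RIN. Mt1, a metal-binding metallothionein, gave 0.76 (SE 0.29) and 0.20.

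Angiogenic genes leaned to lower fitted values with RIN in the model. Of 34 angiogenic signalling genes, 7 were lower (background 7.39%) and 2 higher at an unadjusted p under 0.05, with a median of -0.18, which was -0.01 without RIN and -0.01 in F21-F40. Nrp2, a VEGF and semaphorin receptor, was 17.7 to 42.6 CPM in gamma and 13.5 to 57.2 CPM in sham libraries, with a log2 fold change of -0.61 (SE 0.16). Efnb2, the arterial ephrin, gave -0.52 (SE 0.13), and Cd93, an endothelial lectin, -0.51 (SE 0.14). The junction gene Pecam1 gave -0.19 (SE 0.13). Of the 18 endothelial markers 14 had a fitted value below 0 in the same fit. At an unadjusted p under 0.05, 4 were lower and 0 higher (backgrounds 7.39% and 6.27%). Without RIN 0 were lower and 0 higher (backgrounds 3.25% and 6.44%). The median of the 18 markers was -0.17, and -0.07 without RIN. The median of these markers was -0.12 in F1-F20, but 0.13 in F21-F40 and 0.02 with RIN and title block. Their summed level, compared without RIN, was 2008 to 3788 CPM in gamma, F39 being highest, and 2463 to 3017 CPM in sham libraries (exact permutation test, p = 0.601). In bulk RNA a difference in the number of cells of a type and one in RNA per cell cannot be told apart. Tfpi, the endothelial inhibitor of coagulation, was 38.01 to 48.4 CPM against 43.3 to 57.6 CPM, with 5 gamma libraries below every sham library and a log2 fold change of -0.31 (SE 0.08, adjusted p = 0.284), and -0.25 without RIN. Serping1, the C1 inhibitor, gave 0.39 (SE 0.13) with RIN and -0.09 without.

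**Figure D5:**
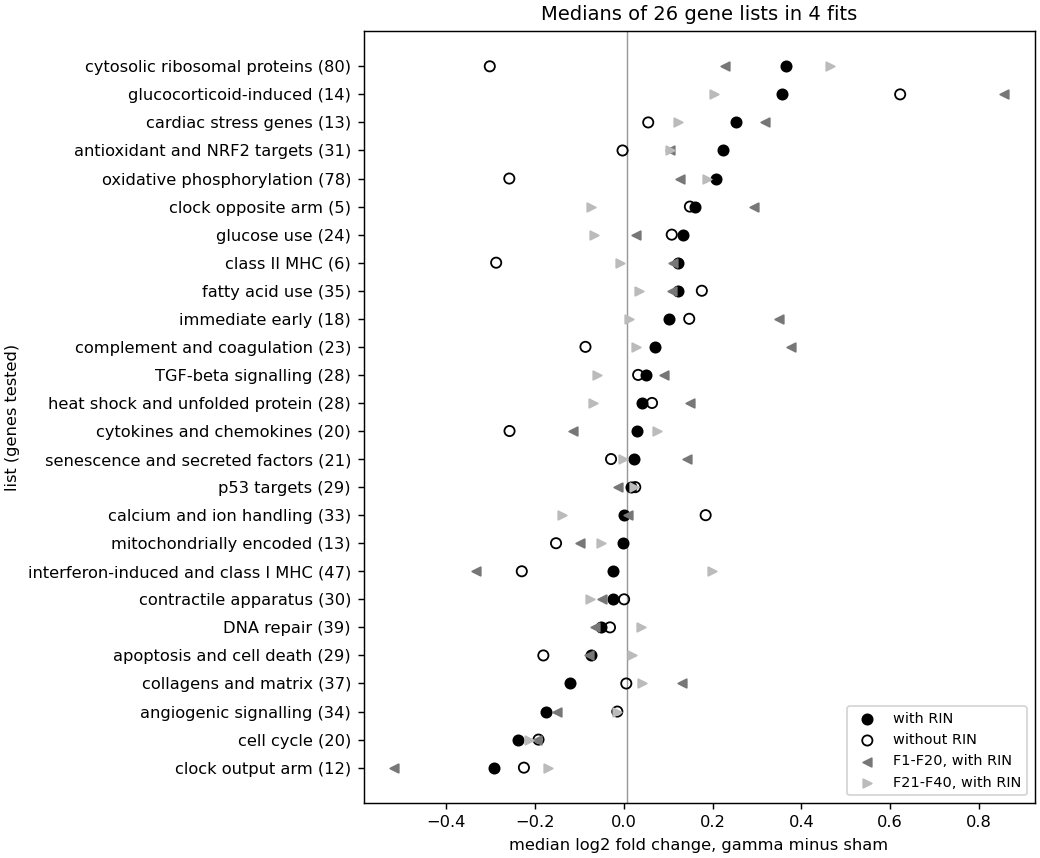
Median log2 fold change, gamma minus sham, of 26 gene lists (y axis, genes tested in brackets), with RIN in the model (filled circles), without RIN (open circles) and with RIN within each title block (triangles), and the median of all genes as a grey line. Ribosomal proteins and oxidative phosphorylation lie right of the line with RIN (0.37 and 0.21) and left of it without (-0.30 and -0.26), and the glucocorticoid list lies right of it in all 4 fits.

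Genes of cardiac load, contraction and fibrosis did not pass the test in the 17 libraries. Of 13 cardiac stress genes, 3 were higher and 0 lower at an unadjusted p under 0.05 (backgrounds 6.27% and 7.39%). Their median was 0.25, and 0.05 without RIN. With pairs counted once 1 was higher and 0 lower (backgrounds 5.79% and 5.19%), with a median of 0.14. The median was 0.32 in F1-F20 and 0.12 in F21-F40. Nppb, which encodes the natriuretic peptide BNP, was 13.8 to 569 CPM in gamma and 12.7 to 244 CPM in sham libraries, with medians of 46.8 and 54.0 CPM and the highest value in F39. Myh7, the slow myosin heavy chain, was 43.4 to 480 CPM against 28.8 to 640 CPM, with F40 and F9 far above the rest of their groups. Myh6, the fast form, was 3346 to 27690 CPM against 4089 to 22890 CPM, and its log2 fold change was -0.42 with RIN and 0.37 without. Acta1, the skeletal actin of the fetal program, was 18.8 to 414 CPM against 25.1 to 588 CPM. In the contractile list 0 of 30 were higher and 2 lower at an unadjusted p under 0.05, the latter a share near the background of 7.39%. These were Myh7b, a slow myosin, with -1.03 (SE 0.30), and Myom2, an M-band protein, with -0.67 (SE 0.23), and both were close to 0 without RIN (-0.06 and -0.08).

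Among ion channel genes Hcn2, a pacemaker channel, was 16.4 to 39.8 CPM in gamma and 9.29 to 33.5 CPM in sham libraries (log2 fold change 0.80, SE 0.25, and 0.65 without RIN). Gja5, the gap junction protein of atria and conduction fibres, gave -0.66 (SE 0.24), with its highest values, 15.4 and 12.2 CPM, in F6 and F7, the sham pair with the most atrial markers. It was -0.40 without F6, -0.06 without both and -0.89 without F19. Pln, the inhibitor of the calcium pump, gave -0.23 (SE 0.10). Of 35 fatty acid genes 1 was higher and 2 lower at an unadjusted p under 0.05 (backgrounds 6.27% and 7.39%), 30 had a fitted value above 0, and the median was 0.12. Without RIN the median was 0.18, with 11 higher and 1 lower (backgrounds 6.44% and 3.25%). Cd36, a fatty acid transporter, gave 0.26 (SE 0.10) with RIN and 0.29 without. Cpt1b, the gate of mitochondrial fatty acid import, gave -0.55 (SE 0.21) with RIN and 0.25 without, and lipoprotein lipase (Lpl) -0.30 and 0.12.

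Of 37 collagen and matrix genes, 2 were higher and 1 lower at an unadjusted p under 0.05, neither above the backgrounds of 6.27% and 7.39%. Their median was -0.12 with RIN and -0.07 with pairs counted once. It was 0.13 in F1-F20, 0.04 in F21-F40, 0.10 with RIN and title block and 0.006 without RIN, so its sign depended on the model. Col1a1 and Col3a1, the fibrillar collagens, gave -0.16 (SE 0.18) and -0.28 (SE 0.20), and Postn, a product of activated fibroblasts, -0.06 (SE 0.28), none with an unadjusted p under 0.05. Timp1, an inhibitor of matrix proteases, was 2.77 to 14.4 CPM against 2.20 to 9.26 CPM, with 0.71 (SE 0.23) with RIN and 0.01 without. The chemokine Cxcl12 gave -0.26 (SE 0.10) and -0.08.

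Atrial tissue differed between the libraries of both groups. The 10 atrial markers summed to 571 to 866 CPM in gamma and 379 to 1597 CPM in sham libraries (exact permutation test, p = 0.661), and the near-identical sham libraries F6 and F7 held the highest sums. Myl4, the atrial light chain, was 415 and 434 CPM in F6 and F7, 2.36 to 99.3 CPM in gamma and 3.17 to 37.9 CPM in the other sham libraries. Myl7 was at most 265 CPM, Sln at most 131 CPM and Nppa at most 48.5 CPM, each highest in F6 or F7. The medians were higher in gamma than in sham libraries. For the summed markers they were 738.3 CPM in gamma and 571.0 CPM in sham libraries. In the same order they were 73.44 and 13.5 CPM for Myl4 and 30.52 and 4.628 CPM for Myl7. For Sln they were 18.02 and 1.128 CPM, and for Nppa 1.56 and 1.271 CPM. Myl2, the ventricular light chain, was 5835 to 14620 CPM in gamma and 7860 to 20310 CPM in sham libraries. Without F6 and F7, 0 genes passed an edgeR adjusted p under 0.05 (931 at an unadjusted p under 0.05). Of 15 marker lists 0 had an exact p under 0.05 between the groups, with exact permutation p-values from 0.302 and adjusted p-values from 0.954. Red blood cell markers were highest in F39 (1273 CPM), and 64.0 to 762 CPM in the other libraries.

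Log2 fold changes of each sex below come from separate fits and the difference, male minus female, from 1 fit of both. Whether females and males differed in their response to gamma was tested with 10 gamma and 10 sham male ND libraries, 37 libraries in all. The sham males were 530 d or 750 d old and the ages of the irradiated males are not given in the labels. RIN in males was 6.6 to 9.1 in gamma and 3.6 to 7.3 in sham libraries. Of 10959 genes, 7 (0.0639%) differed at an edgeR adjusted p under 0.05, 6 with a more positive value in males (0.0547%) and 1 with a more negative one (0.00912%). Meox2, a homeobox gene of endothelial cells and the limb, was 12.7 to 27.8 CPM in gamma and 22.5 to 28.5 CPM in sham females (log2 fold change -0.43) and had 0.56 in males, a difference of 1.19 (adjusted p = 0.0112). Abcb1a, a drug efflux pump of the endothelium, had -0.42 in females and 0.63 in males (difference 0.89, adjusted p = 0.0249), and Tmem71, a membrane protein gene, -0.42 and 0.91 (1.23, adjusted p = 0.0288). Tgtp2 and Iigp1, GTPases that interferon gamma induces, had 0.03 and -0.19 in females and 1.60 and 1.44 in males, with differences of 2.18 (adjusted p = 0.0249) and 1.59 (adjusted p = 0.0499). Tgtp2 has a near-identical neighbour and is uncertain. Zfp36l2, an mRNA decay factor, differed by 1.08 and Castor2, an arginine sensor, by -1.12, each with an adjusted p of 0.0307. With near-identical F libraries counted once, or with a RIN slope for each sex, 0 of the 7 passed, with adjusted p-values from 0.161 and from 0.228, and every difference kept its sign with near-identical libraries counted once.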

How the data were processed

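RNA of mouse RV was sequenced, and the authors deposited raw read counts per gene for 76 libraries. They aligned reads with STAR 2.7.8a to GRCm39 after FastQC 0.11.9 and counted reads at the 3′ end of each gene with HTSeq; the strand setting is not given in the sources used here. Degraded RNA can change such counts. From the deposited counts, 11351 genes that exceeded 20 counts in every one of the 17 libraries were tested with edgeR 4.0.16 (R 4.3.3, TMM, quasi-likelihood test, field plus RIN, Benjamini-Hochberg adjusted p under 0.05). Standard errors were the log2 fold change over the root of F. CPM used TMM-scaled library sizes; F16 used its library total. Total counts per library had a median of 15476026. Libraries with a mean chi-square per gene under 5 were treated as near-identical and, as an alternative, summed. RIN and marker sums were compared by exact permutation tests over libraries.

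Alternatives were DESeq2 1.42.0, other covariates, filters and size factors, and leaving out libraries; those without F39, F6 and F7, or F17 and F18, and the combinations with pairs counted once, were added after seeing the data. In simulated data with all 17 libraries drawn as independent, 193 of 200 genes changed 2-fold were recovered, with 10 false calls. The simulation held no near-identical pairs, so it does not give the recovery to be had from the real libraries. Members and lists were chosen with earlier results of these data known. Named genes were the 10 of each direction that passed, or else had the smallest p, the 3 smallest p of each list, of which not all are described (some are not reported here), and 23 fixed genes; others are named as chosen after their values were seen. Gene positions are from GENCODE vM39 (GRCm39), promoters from RefSeq (GRCm38.p6).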

Additional observations from a re-analysis of the deposited data

Results flagged for a closer look

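Values of single libraries far from the rest of their group were found in 28 of 212 groups of values examined. Of the 28, 13 were in F39 and 5 in F28. The rule lists about 1 in 20 groups by chance where values are independent and normal. The groups here share libraries and hold near-identical pairs, so 28 of 212 cannot be set against that rate. A library was listed when its gap to the nearest other value was above Dixon's 95% critical value for the group's range. The rule cannot list 2 libraries that are high together, such as F17 and F18 for Cdkn1a.

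In F39 the summed markers were 3788 CPM for endothelial cells, 20.27 CPM for neutrophils, 1994 CPM for adipocytes and 1273 CPM for red blood cells. F39 also held the highest gamma values of Nxpe4 (13.27 CPM), Ninj1 (179.2 CPM), Rpl17-ps3 (15.07 CPM), Rps27l (230.6 CPM), Rpl34 (692.6 CPM), Socs3 (27.55 CPM), Bax (33.18 CPM) and Nppb (568.9 CPM), and the lowest of Jarid2 (10.46 CPM).

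In F28 the summed markers were 1612 CPM for adipocytes, 3.411 CPM for mesothelium and 13.16 CPM for skeletal muscle, and Mt1 was 543.8 CPM and Myl2 20310 CPM. Lung epithelium markers summed to 1.695 CPM in F29. In F9, Myh7b was 264.3 CPM, Myh7 639.5 CPM and Col1a1 111.1 CPM. Hcn2 was 33.54 CPM in F27, Nppb 243.5 CPM in F26, Trp53inp1 12.46 CPM and Ddx3y 0.1474 CPM in F8, Myh7 480.3 CPM in F40 and Gbp5 13.98 CPM in F38.

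The response to gamma differed between males and females at an edgeR adjusted p under 0.05 in 7 genes. Male minus female, the log2 differences were 1.19 for Meox2, 2.18 for Tgtp2, 0.89 for Abcb1a, 1.23 for Tmem71, 1.08 for Zfp36l2, -1.12 for Castor2 and 1.59 for Iigp1, and 0 of them passed with near-identical F libraries counted once.

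F16 entered no comparison because its labels give the field Gamma and the dose 0 cGy. It was above every sham library in several of the 23 fixed genes, of which some are listed here. The share over all genes is not given. F16 was scaled to its library total and the sham libraries with TMM factors, so small gaps between them cannot be read. In CPM of its library total, Myl4 was 2842, Myl7 1646, Sln 1047 and Nppa 267.0, all atrial genes, and Postn was 93.07, Col3a1 246.3, Cdkn1a 38.75 and Phlda3 34.03.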

How the results depend on the processing

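No paired analysis was possible because the titles carry no replicate number that gamma and sham libraries share, and numbers in accession order pair nothing. Of 89 settings of the counts and of the RIN difference 53 gave a like value, and of 3108 settings of single genes 2875 kept direction and side of the threshold. Since 0 genes passed in the main fit, the side could seldom change, and many settings leave out 1 library of the same data. The latter share therefore describes mainly direction. The 0 genes of the 17 libraries became 24 with DESeq2, 2 without a count filter (Nppa and Sbk3), 1 with title block in place of RIN (Or5m3b), 1 without F39 (Nxpe4), and 0 to 2 when each library was left out, 2 without F19 (Rab10os and Gm64463). The 43 genes of F1-F20 became 23 without RIN, 246 with DESeq2, 0 with near-identical libraries counted once, 0 so counted without RIN, and 0 to 779 when each library was left out. The difference between blocks gave 61 genes with DESeq2. The RIN association gave 3328 genes with title block in the model. The difference between sexes gave 124 genes without RIN, 59 with DESeq2, 0 with a RIN slope in each sex and 0 with near-identical libraries counted once. The RIN difference was 0.952 with near-identical libraries counted once (exact permutation p = 0.112) and 0.9 to 1.34 when each library was left out. The cause of these changes was not tested.

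Directions of named genes reversed as follows. The log2 fold changes were Bax -0.27, Col1a1 0.05681, Cox7a2 -0.31, Cpt1b 0.25, Lpl 0.12, Mdm2 0.0257, Myh6 0.37, Myl2 -0.33, Rpl17-ps3 -0.22, Rpl34 -0.27, Rps27l -0.33, Serping1 -0.08643 without RIN. With title block in place of RIN, the log2 fold changes were Bax -0.30, Col1a1 0.08282, Cox7a2 -0.32, Cpt1b 0.42, Lpl 0.21, Mdm2 0.037, Myh6 0.56, Myh7 0.52, Myh7b 0.28, Myl2 -0.35, Myl4 0.28, Myom2 0.08746, Rpl17-ps3 -0.20, Rpl34 -0.28, Rps27l -0.37, Serping1 -0.09214. With pairs counted once and no RIN, the log2 fold changes were Bax -0.20, Col1a1 0.05622, Cox7a2 -0.20, Cpt1b 0.18, Lpl 0.11, Myh6 0.29, Myh7 0.002279, Myl2 -0.28, Rpl17-ps3 -0.03325, Rpl34 -0.11, Rps27l -0.22. With RIN and title block, the log2 fold changes were Col1a1 0.09958, Col3a1 0.03145, Pecam1 0.03958, Phlda3 0.02271, Postn 0.13. With pairs counted once, RIN and title block, the log2 fold changes were Col1a1 0.06999, Col3a1 0.05311, Pecam1 0.04317, Phlda3 0.09887, Postn 0.20. With pairs counted once, the log2 fold changes were Postn 0.02481. With atrial markers as a covariate, the log2 fold changes were Myl4 0.91, Trp53inp1 -0.09705. In the shared RIN range, the log2 fold changes were Bax -0.03307, Nppb -0.64, Trp53inp1 -0.07489. With all F groups in 1 fit, the log2 fold changes were Bax -0.03246. Without F39, the log2 fold changes were Bax -0.14, Myl2 -0.02911, Nppb -1.30. Without F6 and F7, the log2 fold changes were Myl4 1.60, Trp53inp1 -0.06619. When each library was left out in turn, the genes that changed sign ranged over Acta1 -1.15 to 0.45, Bax -0.14 to 0.12, Col1a1 -0.31 to np.float64(0.0145), Myh7 -1.11 to np.float64(0.08711), Myl2 np.float64(-0.02911) to np.float64(0.09831), Nppb -1.30 to 0.97, Postn -0.43 to 0.16, Trp53inp1 np.float64(-0.04478) to np.float64(0.07999). The settings without F39, without F6 and F7, and those that combine pairs counted once with another covariate were chosen after seeing the data.

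Depth limits genes under about the count filter, such as Gdf15, and RIN limits the rest. Only 6 gamma and 5 sham libraries lie in the RIN range from 5.7 to 7.6 that both groups share. These are F19 and F36 to F40 in gamma, and F6 to F9 and F26 in sham. In the shared RIN range field can therefore hardly be told apart from title block and sham age.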

Other observations

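Marker lists showed what else F16 held. Its atrial markers summed to 8496 CPM, against 379 to 1597 CPM in the 17 libraries compared, while its ventricular markers summed to 29690 CPM, within their range of 27280 to 40130 CPM. Its mesothelial markers summed to 37.01 CPM, against at most 16.5 CPM in the others. F16 had Xist at 178.6 CPM of its library total and was near-identical to none of the 17 libraries, with a lowest mean chi-square per gene of 30.03.

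Class II MHC genes, which present antigen on macrophages and dendritic cells, followed RIN. All 6 tested had lower levels at higher RIN at an edgeR adjusted p under 0.05 (25.8% of all genes), their median log2 fold change, gamma minus sham, was 0.12 with RIN and -0.29 without it, and 0 of them had an unadjusted p under 0.05 for gamma in either fit. Macrophage markers gave 11 of 14 lower at higher RIN, with median log2 fold changes for gamma of 0.21 with RIN and -0.29 without.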
